A study of Mus musculus with 6 samples.

Results

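Cebpa, Cebpb, Cebpd, Cebpg, Pparg, Ppara, Ppard, Rxra and Rxrb are the C/EBP, PPAR and RXR genes that make up the core of the adipogenic transcription program, and they were chosen here by name, 9 of the 13283 genes in the deposited table. All 9 were in the table and all 9 passed the filter on low values. RNA-seq was done on 6 libraries of BAT cells, an immortalized mouse brown preadipocyte line that expresses Cas9. MICT1 KO cells (3 libraries) are lentivirus-transduced pools, sorted for GFP, that carry a single guide RNA against MICT1, a microprotein of brown fat, and Scr cells (3 libraries, labelled as wild type) carry a scrambled guide RNA. The labels do not say which of the study's pools gave which library. Both groups were differentiated with insulin, isobutylmethylxanthine, dexamethasone, T3, indomethacin and rosiglitazone, and both received 10 µM forskolin, which raises cAMP, for 6 h on day 6. Rosiglitazone is itself a PPARγ agonist and stayed in the medium of both groups. MICT1 itself is not analysed here, so the KO labels were not checked against the targeted gene.

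In the textbook order of adipogenesis, the hormones of the induction medium first raise C/EBPβ and C/EBPδ, which then switch on the genes of PPARγ and C/EBPα. These late factors maintain each other's expression and together activate the lipid-storage genes of the mature adipocyte. PPARs bind DNA as heterodimers with an RXR, and C/EBPs bind as dimers through a basic leucine zipper (bZIP). The comparison of MICT1 KO with Scr cells therefore asks which of these genes, early factors, late factors or shared partners, differed between the groups. All libraries were taken on day 6 after 6 h of forskolin, so the early factors were not measured at the early step.

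The deposited values are a normalized signal per gene, close to read counts divided by a size factor per library, and sum to between 16104616 and 16616825 per library. Correlations over the tested genes were at least 0.987 within a group and at most 0.940 between groups. Differences below are log2 fold changes of MICT1 KO against Scr on the log2(value + 1) scale, tested with limma-trend over 12507 genes, and a gene was called at a Benjamini-Hochberg adjusted p under 0.05. In all, 56.9% of the tested genes were called (28.3% lower and 28.5% higher), with a median log2 fold change of -0.01, so a call alone says little about any one gene. Only 5.76% of genes were called and at least 2-fold lower, and 7.99% called and at least 2-fold higher.

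These promoter windows are shown because C/EBPβ is the classical activator of Cebpa and Pparg and because CREB, the factor activated downstream of forskolin, acts on Cebpb. Each is the 250 bases before a RefSeq transcription start (GRCm38.p6, plus strand), at chr7:35119043-35119292 for Cebpa, chr2:167688665-167688914 for Cebpb and chr6:115421816-115422065 for the third of 3 Pparg windows, the start of the adipocyte isoform Pparγ2. Capitals mark matches to TGACG, the core of the CRE, in Cebpb and to the loose C/EBP motif TTNCNNAA in Pparg, on either strand.
Cebpa: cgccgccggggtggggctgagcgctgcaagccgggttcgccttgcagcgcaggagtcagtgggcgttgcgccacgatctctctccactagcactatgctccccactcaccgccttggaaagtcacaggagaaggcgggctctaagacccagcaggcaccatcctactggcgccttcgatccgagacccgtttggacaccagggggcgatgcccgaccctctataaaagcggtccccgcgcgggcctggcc
Cebpb: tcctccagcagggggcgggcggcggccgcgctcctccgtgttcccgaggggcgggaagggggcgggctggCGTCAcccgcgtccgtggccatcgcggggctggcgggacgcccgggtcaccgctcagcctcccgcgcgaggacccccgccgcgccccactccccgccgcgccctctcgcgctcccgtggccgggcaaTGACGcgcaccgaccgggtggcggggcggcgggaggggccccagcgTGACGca
Pparg: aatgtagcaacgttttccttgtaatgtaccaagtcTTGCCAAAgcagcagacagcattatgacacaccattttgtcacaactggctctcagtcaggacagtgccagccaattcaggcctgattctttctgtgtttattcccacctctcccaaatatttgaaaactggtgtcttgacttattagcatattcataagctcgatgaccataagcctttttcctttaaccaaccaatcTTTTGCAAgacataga
The Cebpb window held 3 CRE cores, 180, 53 and 7 bases before the start, the first of them on the minus strand. The Pparg window held TTGCCAAA on the plus strand 215 bases before the start and TTTTGCAA, a match on the minus strand, 16 bases before it. The Cebpa window held no match to any of the 5 motifs searched, which says only that these letters are absent from these bases.

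No window was available for Cebpd, so its promoter was not searched. Across the 12 windows found for the other 8 of the 9 genes, the full C/EBP palindrome TTGCGCAA and the full CRE TGACGTCA had no match. DR1, the spaced direct repeat bound by PPAR-RXR dimers, had none either. Single TGACG matches lay in the window of Ppara, 222 bases before the start, and in 1 window of Rxrb, 119 bases before it, while the windows of Cebpg, Ppard and Rxra and the other windows of Pparg and Rxrb held none of the motifs. Of all 32851 RefSeq windows of this length, 17.8% held TGACG, 36.8% held TTNCNNAA, 1.55% held TGACGTCA, 0.164% held TTGCGCAA and 0.0335% held DR1 on either strand. TGACG is part of TGACGTCA and TTNCNNAA includes TTGCGCAA, so these shares overlap, and a match is a description of letters and not a bound site.

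Of the 9 genes, the late factors had the largest falls. Cebpa and Pparg dropped to a small part of their Scr level, Rxra fell by nearly 1 log2 unit, Cebpb, Rxrb and Ppard fell by less, whereas Cebpd rose. With limma-trend and Benjamini-Hochberg adjustment, 6 of the 9 genes were lower in MICT1 KO cells (28.3% of all tested genes were), 1 was higher (28.5% of all) and 2 were not called. The groups did not overlap for 8 of the 9 genes, against 62% of all tested genes. Cebpa and Pparg were also among the 5.76% of genes called and at least 2-fold lower, and Cebpd among the 7.99% called and at least 2-fold higher.

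**Figure D1:**
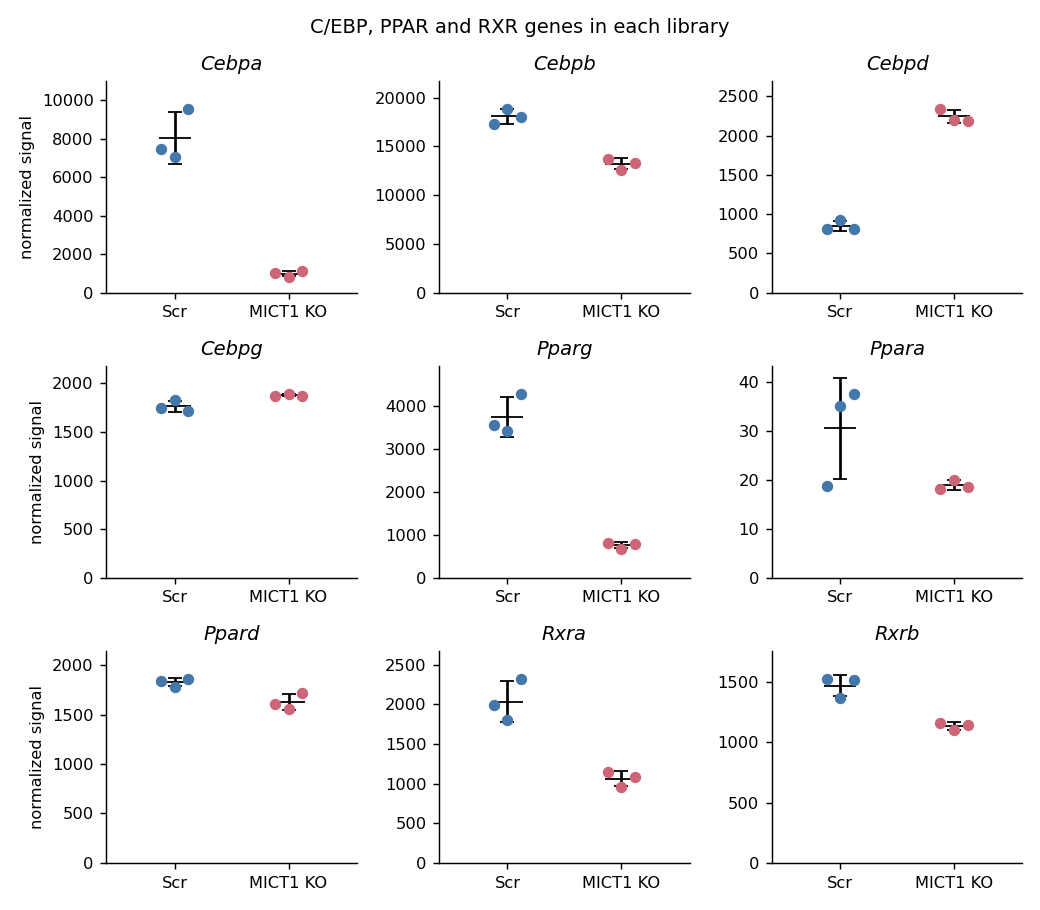
Normalized signal (vertical axes, each from 0) of the 9 genes in the 3 Scr (blue) and 3 MICT1 KO (red) libraries, with the mean and SD of each group as bars. The groups are apart in every panel except that of Ppara, and Cebpd is the one gene that is clearly higher in MICT1 KO cells, at 2190.1 to 2343 against 813 to 921.

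**Figure D2:**
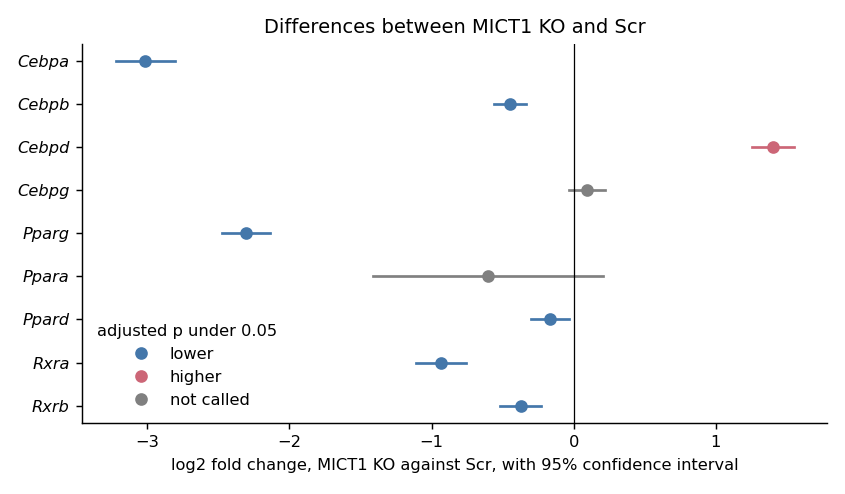
Log2 fold change of MICT1 KO against Scr (horizontal axis) for each gene, with its 95% confidence interval as a line. Intervals of Cebpa (-3.22 to -2.81) and Pparg (-2.48 to -2.14) lie far to the left of 0, that of Cebpd (1.26 to 1.55) lies to the right, and those of Cebpg and Ppara cross 0.

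Among the late factors, Cebpa (chr7:35119293-35121928, plus strand, GRCm38) encodes C/EBPα, which drives the insulin-sensitive adipocyte state. Its normalized signal was 7462, 7033 and 9561 in the Scr libraries but 1022, 830.3 and 1121 in those of MICT1 KO. Every KO library lay below every Scr library, and the spread within a group was small beside the gap. The mean fell from 8019 ± 1353 to 991 ± 148 (SD, n = 3 each), 8.09-fold, with a log2 fold change of -3.01 (SE 0.099, limma-trend adjusted p = 4.61e-16), which put Cebpa at rank 99 among the falls of the 12507 genes. Ranked by RPKM, the signal scaled by exon length and library total, Cebpa stood at percentile 98.8 of all genes in Scr cells and at 81.5 in MICT1 KO cells.

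Pparg (chr6:115360951-115490399, plus strand) encodes PPARγ, the receptor without which no adipocyte forms and the target of rosiglitazone. Its signal was 3546, 3406 and 4276 in Scr cells versus 802, 677 and 782 in MICT1 KO cells. Here too the groups lay far apart. The mean fell from 3742 ± 467 to 754 ± 66.7 (SD, n = 3 each), 4.97-fold, with a log2 fold change of -2.31 (SE 0.082, limma-trend adjusted p = 1.69e-15) and rank 161 among the falls. The table gives 1 value per gene, so Pparγ1 and Pparγ2 transcripts could not be told apart.

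Scr 3 had the highest level of the Scr libraries for both late factors, and for Rxra and Ppard. Without Scr 3 the log2 fold change was -2.88 for Cebpa and -2.21 for Pparg, and both calls held. MICT1 KO 2 was the lowest KO library for all 6 genes that fell.

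The early factors did not move together. Cebpb (chr2:167688915-167690418, plus strand) encodes C/EBPβ, which is induced by cAMP and starts the cascade. It measured 17328, 18861 and 18030.1 in Scr, compared with 13724, 12619 and 13340 in MICT1 KO libraries. The groups were apart, but the gap was modest: the mean fell from 18073 ± 767 to 13228 ± 561 (SD, n = 3 each), 1.37-fold, with a log2 fold change of -0.45 (SE 0.054, limma-trend adjusted p = 4.42e-07). At percentile 99.8 of all genes in Scr and 99.6 in MICT1 KO cells by RPKM, Cebpb stayed among the most abundant transcripts of both groups.

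Cebpd (chr16:15887286-15891031, plus strand) encodes C/EBPδ, the partner of C/EBPβ in the first hours after glucocorticoid and cAMP. It went the other way, with 813, 921 and 815 in Scr against 2343, 2201 and 2190.1 in MICT1 KO libraries. All KO libraries lay above all Scr libraries. The mean rose 2.64-fold from 849.6 ± 61.4 to 2245 ± 85.4 (SD, n = 3 each), a log2 fold change of 1.40 (SE 0.069, limma-trend adjusted p = 3.82e-13) at rank 577 among the rises.

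Both genes share exonic sequence with a gene on the opposite strand, and whether the counting used strand is not given in the sources used here. Cebpb shares 312 exonic bases with Tmem189, whose signal was 1571, 1613 and 1746 in Scr cells versus 1332, 1152 and 1251 in MICT1 KO cells (log2 fold change -0.40, adjusted p = 6.02e-05). Cebpd shares 562 exonic bases with Spidr, at 667, 595 and 663 in Scr, compared with 969, 962 and 955 in MICT1 KO libraries (log2 fold change 0.58, adjusted p = 2.19e-06). Each partner moved in the direction of its C/EBP gene, and the part of shared reads in either result was not tested. Cebpa shares 51 exonic bases with the antisense transcript Gm45091, and Cebpg shares 73 with Gm44836, which lies on the same strand as Cebpg. Neither Gm45091 nor Gm44836 is in the table.

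Cebpg (chr7:35046422-35056573, minus strand) encodes C/EBPγ, which lacks a transactivation domain and pairs with other bZIP proteins. It measured 1743, 1829.9 and 1719 in Scr against 1870.5, 1893 and 1875 in MICT1 KO libraries. All 3 KO values lay above the Scr values, by a small margin. The log2 fold change was 0.09 with a 95% interval of -0.03 to 0.22 (limma-trend adjusted p = 0.200), so a change beyond 0.22 in either direction lay outside the interval. Of the other C/EBP and RXR genes, Cebpe and Rxrg were not in the table. Cebpz, a CCAAT-binding protein of the nucleolus, had a log2 fold change of -0.22 (adjusted p = 0.00867), and Ddit3, the stress-induced C/EBP inhibitor CHOP, one of 0.41 (adjusted p = 0.0214). Both calls were lost without Scr 3 (adjusted p = 0.0672 for Cebpz and 0.208 for Ddit3), and that of Ddit3 also without MICT1 KO 1 (0.0700).

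Of the other PPARs, Ppard fell by a small amount and Ppara was not called. Ppard (chr17:28232700-28301474, plus strand) encodes the widely expressed PPARδ, a regulator of fatty acid oxidation. Its signal was 1836, 1782 and 1861 in Scr cells versus 1603, 1560.4 and 1723 in MICT1 KO cells, a fall of the mean from 1826 ± 40.6 to 1629 ± 84.2 (SD, n = 3 each). The groups were narrowly apart, and the log2 fold change of -0.17 (SE 0.063) passed the test at an adjusted p of 0.0295 by limma-trend. That call was lost without Scr 1 (adjusted p = 0.0713), Scr 3 (0.0777), MICT1 KO 1 (0.0610) or MICT1 KO 2 (0.103).

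Ppara (chr15:85734983-85802819, plus strand) encodes PPARα, the fasting-response receptor that is abundant in brown fat and liver. In these cells it was low (percentile 14.2 of all genes by RPKM in Scr cells), with 18.8, 35.2 and 37.7 in Scr, compared with 18.1, 20.02 and 18.7 in MICT1 KO libraries. Scr 1 lay within the range of the KO libraries while Scr 2 and Scr 3 lay above it. The log2 fold change of -0.60 had a 95% interval of -1.41 to 0.20 (limma-trend adjusted p = 0.195), so a difference was not detectable at this depth. Without Scr 1 the log2 fold change was -0.91 (adjusted p = 0.0712).

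Of the shared partners, Rxra (chr2:27676440-27762957, plus strand) encodes RXRα, the main heterodimer partner of PPARγ in adipocytes. It measured 1988, 1798 and 2321 in Scr against 1148, 956 and 1085 in MICT1 KO libraries. The mean fell 1.92-fold from 2036 ± 265 to 1063 ± 98.0 (SD, n = 3 each), a log2 fold change of -0.93 (SE 0.085, limma-trend adjusted p = 7.77e-09), and the groups did not overlap. Rxrb (chr17:34031812-34038399, plus strand), which encodes the ubiquitous RXRβ, measured 1526, 1371 and 1515 in Scr cells versus 1161, 1099 and 1141 in MICT1 KO cells. It fell 1.30-fold, by 0.37 on the log2 scale (SE 0.068, adjusted p = 9.25e-05), also without overlap.

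Levels of different genes were compared per exon length. In Scr cells the mean RPKM ran from 734 for Cebpb, 186 for Cebpa and 77.4 for Pparg through 22.8 for Rxra, 22.6 for Rxrb, 19.2 for Cebpg, 14.9 for Ppard and 13.8 for Cebpd down to 0.485 for Ppara. Neighbours in that order had separate ranges over the 3 libraries, except Rxra and Rxrb, and Ppard and Cebpd, whose ranges overlapped. In MICT1 KO cells the order became 539 for Cebpb, 36.7 for Cebpd, 23.0 for Cebpa, 20.5 for Cebpg, 17.5 for Rxrb, 15.6 for Pparg, 13.3 for Ppard, 11.9 for Rxra and 0.302 for Ppara. By these lengths Cebpd stood at place 8 in Scr and at place 2 in MICT1 KO cells. In MICT1 KO cells the ranges of Cebpa and Cebpg, of Pparg and Ppard, and of Ppard and Rxra overlapped while the other neighbours were separate. Cebpd is annotated with 3746 exonic bases in GENCODE and 2260 in RefSeq, and with the RefSeq length its RPKM was 23.0 in Scr and 60.9 in MICT1 KO cells, which put it at place 4 in Scr and at place 2 in MICT1 KO cells.

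Family shares were taken of the summed RPKM. The C/EBP family here is Cebpa, Cebpb, Cebpd and Cebpg, without Ddit3 and Cebpz. Cebpa made up 19.0%, 16.9% and 22.5% of that sum in the Scr libraries but 3.70%, 3.27% and 4.16% in those of MICT1 KO. Cebpb was the bulk of the family in both groups, at 77.1% ± 2.61 in Scr and 87.0% ± 0.168 in MICT1 KO cells, and Cebpd went from 1.45% ± 0.105 to 5.93% ± 0.192 (SD, n = 3 each). That difference of 4.48 points was 7.13 points with RefSeq lengths and 9.28 points without dividing by length. Within the PPARs the make-up shifted more. Pparg was 82.8%, 82.4% and 84.9% of the family in Scr, compared with 55.5%, 51.9% and 53.1% in MICT1 KO libraries, while Ppard went from 16.1% ± 1.37 to 45.5% ± 1.74. Rxra was 50.1% ± 2.29 of the RXR sum in Scr and 40.5% ± 1.58 in MICT1 KO cells. Shares of a family add up to 100%, so a gene's share can be higher without a higher level, as for Ppard, whose signal was lower in MICT1 KO cells. None of the 9 shares overlapped between the groups, and each had an exact two-sided permutation p of 0.1 (0.1 after Benjamini-Hochberg adjustment over 9), the smallest that 3 against 3 libraries allow. Shares within a family depend on each other, so these 9 are not separate results.

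**Figure D3:**
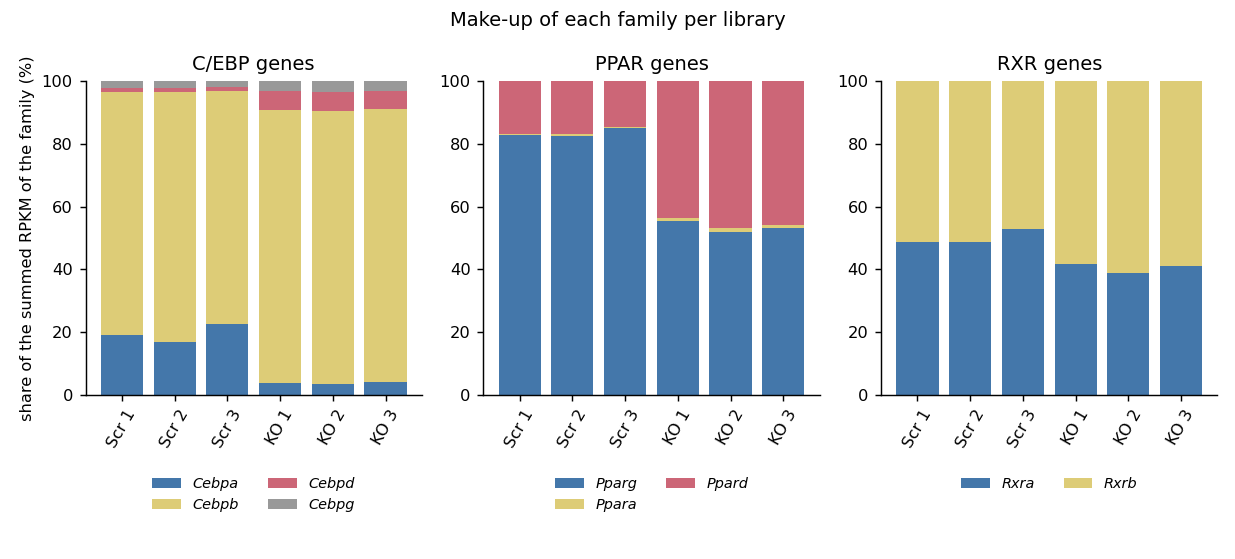
Share of each gene (% of the family's summed RPKM, vertical axes) in each of the 6 libraries, for the C/EBP, PPAR and RXR families. Cebpa goes from 19.5% of its family in Scr to 3.71% in MICT1 KO cells, and Ppard from 16.1% to 45.5% beside a lower share of Pparg.

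The summed level of each family was lower in MICT1 KO cells as well. The C/EBP sum was 953 ± 30.5 RPKM in Scr and 619 ± 24.1 in MICT1 KO cells (1.54-fold), the PPAR sum 92.8 ± 10.2 and 29.2 ± 1.83 (3.18-fold), and the RXR sum 45.4 ± 4.40 and 29.4 ± 1.48 (1.54-fold; SD, n = 3 each). Groups did not overlap for any of the 3 sums (exact two-sided permutation p = 0.1 each).

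Ratios within a library do not depend on how that library was scaled. Cebpb exceeded Cebpa by 4.07, 4.70 and 3.31 times in RPKM in Scr and by 23.5, 26.6 and 20.9 times in MICT1 KO libraries, a change of 2.56 on the log2 scale. Cebpd was 0.0767, 0.0921 and 0.0600 of Cebpa in Scr and 1.61, 1.87 and 1.38 of it in MICT1 KO libraries, a log2 change of 4.42. Cebpb thus outweighed Cebpa in every library of both groups, by more in MICT1 KO libraries, whereas Cebpd passed Cebpa only in MICT1 KO libraries. Cebpb to Pparg went from 9.59, 10.9 and 8.28 to 33.6, 36.6 and 33.5.

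Pparg exceeded its partner Rxra by 3.30, 3.50 and 3.41 times in RPKM in Scr and by 1.29, 1.31 and 1.33 times in MICT1 KO libraries, a log2 change of -1.37, so the fall of Pparg was larger than that of Rxra. Ppard was 0.203, 0.206 and 0.171 of Pparg in Scr and 0.786, 0.905 and 0.866 of it in MICT1 KO libraries, a log2 change of 2.14. All 5 ratios separated the groups (exact two-sided permutation p = 0.1, adjusted p = 0.1 over 5 ratios). Each ratio combines genes whose own groups were already apart, so this separation is not separate support.

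**Figure D4:**
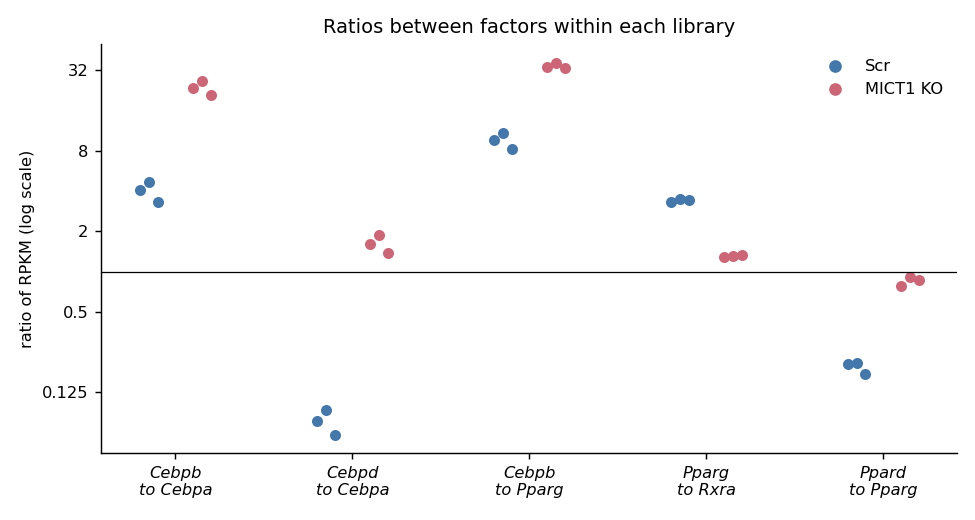
Ratio of the RPKM of the named pairs of genes in each Scr (blue) and MICT1 KO (red) library, on a log axis with a line at 1. Cebpd to Cebpa lies between 0.0600 and 0.0921 in Scr and between 1.38 and 1.87 in MICT1 KO libraries, whereas Pparg to Rxra lies between 3.30 and 3.50 in Scr and between 1.29 and 1.33 in MICT1 KO libraries.

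The adipocyte genes listed here as targets of PPARγ and C/EBPα fell without exception among those measured. Of 24 listed target genes, 19 were in the table and tested, and 19 were lower (28.3% of all genes were), 18 of them at least 2-fold. Their median log2 fold change was -3.70, beside -0.01 over all genes. Cfd, the complement protease adipsin, measured 786, 616 and 718 in Scr against 2.86, 4.21 and 12.4 in MICT1 KO libraries (log2 fold change -6.77). Adipoq, the adipokine adiponectin, measured 733, 468 and 672 in Scr cells versus 7.63, 3.16 and 5.18 in MICT1 KO cells (log2 fold change -6.66). Adipoq passed the filter on low values only through its Scr libraries. Cfd was below the filter value in part of its KO libraries and passed through Scr as well. So did Gpd1 (17.2, 3.16 and 9.33 in MICT1 KO libraries) and Slc2a4 (10.5, 17.9 and 8.29). The calls of Adipoq, Cfd, Gpd1 and Slc2a4 therefore support nothing. The 19 lower genes, the 18 at least 2-fold lower and the median include them. The KO values of Cfd and Adipoq lie so near 0 that the size of the fold change depends on the pseudocount. Cidea, Pck1, Aqp7, Lep and Adrb3 were not in the table, which lists only genes above 0 in every library.

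Target genes of PPARα and PPARδ in fatty acid oxidation were more mixed. Of 16 tested, 11 were lower, 2 were higher and 3 were not called (over all genes, 28.3% and 28.5% fell and rose), with a median log2 fold change of -0.54. Acadm, a mitochondrial acyl-CoA dehydrogenase, had a log2 fold change of -1.86 (SE 0.071, adjusted p = 5.80e-15). The exceptions were Angptl4, a secreted inhibitor of lipoprotein lipase, at 2755, 3175 and 2895 in Scr, compared with 4489, 4285 and 5190.0 in MICT1 KO libraries, and Cpt1a, which brings fatty acids into mitochondria. Their log2 fold changes were 0.66 (adjusted p = 6.06e-08) and 0.54 (adjusted p = 2.35e-08).

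Of 16 tested coactivators of PPARs and C/EBPs, 10 were lower (28.3% of all genes were) and 2 were higher (28.5% of all), with a median log2 fold change of -0.32. Ppargc1b, which encodes PGC-1β, a coactivator of mitochondrial genes, measured 494, 422 and 419 in Scr against 19.1, 30.6 and 22.8 in MICT1 KO libraries (log2 fold change -4.17, adjusted p = 3.41e-13). Its relative Ppargc1a was too low to be tested, at 2.04 to 8.90 in Scr and 1.04 to 15.8 in MICT1 KO libraries. Ncoa1, a steroid receptor coactivator, fell by 0.70 on the log2 scale (adjusted p = 3.62e-06). Cited2, which binds the histone acetyltransferases p300 and CBP, rose by 0.65 (adjusted p = 1.04e-08). Taf7l, a subunit of TFIID, was near the floor in Scr cells at 1.98, 1.85 and 1.02 and measured 34.3, 24.2 and 15.5 in MICT1 KO libraries. It passed the filter on low values only through its KO libraries, so its call supports nothing, and without it 1 coactivator was higher.

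Of the corepressors, 6 of 12 were lower (28.3% of all genes were) and 2 higher (28.5% of all), with a median log2 fold change of -0.13. The falls of Nrip1, which encodes the nuclear receptor corepressor RIP140, and of Tbl1xr1, a subunit of the NCoR complex, both came to -1.12 (adjusted p = 5.39e-10 and 4.58e-12). Hdac1, a histone deacetylase, rose by 0.86 (adjusted p = 5.05e-09).

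Of the other receptors that pair with RXR, 3 of 8 were lower and 3 higher, shares near those of all genes (28.3% and 28.5%). Their median log2 fold change was -0.08 (-0.02 without MICT1 KO 2). Nr1h3, which encodes the oxysterol receptor LXRα, measured 239, 234 and 284 in Scr cells versus 27.7, 26.3 and 36.3 in MICT1 KO cells (log2 fold change -3.03, adjusted p = 1.16e-10). Rara, a retinoic acid receptor, had a log2 fold change of -1.14 (adjusted p = 4.21e-10). Vdr, the vitamin D receptor, rose from 3868, 4438 and 4276 to 8775, 9129 and 9047 (log2 fold change 1.10, adjusted p = 7.59e-13), and Nr4a2, an orphan receptor induced early by cAMP, had one of 1.69 (adjusted p = 1.14e-07).

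Activators that act upstream of Pparg and Cebpa were lower in 8 of 16 and higher in 3 of 16, beside 28.3% and 28.5% of all genes, with a median log2 fold change of -0.33 (-0.19 without Scr 3). Klf15, a Krüppel-like factor of late adipogenesis, had a log2 fold change of -2.24 (adjusted p = 1.83e-07), and Srebf1, which encodes the lipogenic factor SREBP-1, one of -1.21 (adjusted p = 4.79e-13). Ebf2, a factor of brown preadipocytes, rose by 1.24 (adjusted p = 2.03e-05) and Klf5, a target of C/EBPβ and C/EBPδ, by 0.51 (adjusted p = 0.000857). Of the inhibitors of PPARγ and C/EBP action, 8 of 16 were higher and 3 lower (6 higher and 5 lower without Scr 3), beside the same shares of all genes, with a median of 0.16. Gata2, which holds preadipocytes undifferentiated, measured 81.1, 89.9 and 78.4 in Scr, compared with 526, 554 and 400.1 in MICT1 KO libraries (log2 fold change 2.54, adjusted p = 8.54e-12), and Id3, a dominant-negative helix-loop-helix protein, rose by 1.11 (adjusted p = 2.51e-10). Among the exceptions, Dlk1, the preadipocyte protein Pref-1 that restrains differentiation, fell from 727, 661 and 674 to 58.2, 44.3 and 89.1 (log2 fold change -3.47, adjusted p = 1.52e-12), and Bhlhe40, a transcriptional repressor, fell by 1.34 (adjusted p = 1.16e-13).

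Among 11 bZIP genes whose proteins can pair with C/EBPs or share their sites, 7 were higher (28.5% of all genes were) and 2 lower (28.3% of all), with a median log2 fold change of 0.52. Atf3, a stress-induced repressor, measured 579, 662 and 292 in Scr against 2239, 1902 and 1798 in MICT1 KO libraries (log2 fold change 2.03, adjusted p = 5.26e-09). Fos, an immediate-early gene of the AP-1 factor, measured 767, 729 and 445 in Scr cells versus 1504, 1443 and 1519 in MICT1 KO cells (log2 fold change 1.24, adjusted p = 7.11e-08). Scr 3 was the lowest library for Atf3 and Fos, as it was for Ddit3 and Nr4a2. Fosl2, another AP-1 gene, fell by 0.33 (adjusted p = 0.000137), and Batf3 had a log2 fold change of -0.90 (adjusted p = 0.0380) that missed the threshold in 5 of the 6 fits with 1 library left out (all but the fit without MICT1 KO 2, adjusted p up to 0.104).

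**Figure D5:**
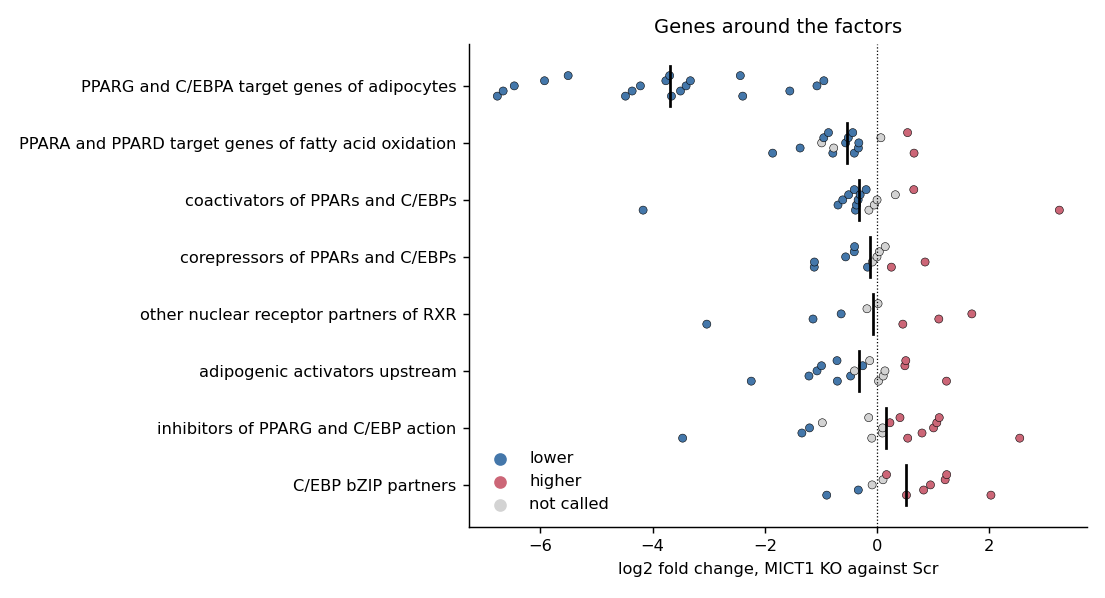
Log2 fold change of MICT1 KO against Scr (horizontal axis) of each tested gene of 8 lists around the C/EBP, PPAR and RXR genes, coloured by call, with the median of each list as a black bar. The listed target genes of PPARγ and C/EBPα all lie below 0 around a median of -3.70, whereas the bZIP partners centre on 0.52.

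Markers of the cell state moved with these results, and in bulk RNA fewer differentiated cells and less RNA per cell cannot be told apart. Of 11 brown adipocyte markers, 5 were in the table, and their summed level was 3115 to 3721 CPM (signal scaled by the library total) in Scr and 239.7 to 437 CPM in MICT1 KO libraries. Fabp4 was 93.7% to 99.0% of that sum, and without it the sum was 187 to 229 CPM in Scr and 2.40 to 6.51 CPM in MICT1 KO libraries. Fabp4, Adipoq and Plin1 are also among the target genes counted above, so these markers are not a separate measure. Ucp1, the uncoupling protein that defines brown adipocytes, was low in both groups, at 20.8, 24.1 and 30.5 in Scr, compared with 1.91, 1.05 and 9.33 in MICT1 KO libraries, and Cidea, Dio2, Prdm16, Elovl3, Cox8b and Adrb3 were not in the table. Of 12 preadipocyte and stromal markers, 10 were in the table, with a sum of 4416 to 5052 CPM in Scr and 5267 to 5748 CPM in MICT1 KO libraries. Among the 9 that were tested, 4 were higher (28.5% of all genes were) and 2 lower (28.3% of all). The 4 were S100a4, Ly6a, Col1a1 and Pdgfrb, with log2 fold changes of 2.58, 1.39, 0.77 and 0.48. Of the 2 lower ones, Dlk1 is described above and Pdgfra, which defines preadipocytes, had a log2 fold change of -0.19 (adjusted p = 0.0347) with overlapping groups. The part of differentiation state in the values of Cebpa, Pparg and their relatives was not tested.

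Markers of other cell types were low. Of 10 macrophage markers, 4 were in the table, with a sum of 16.6 to 23.1 CPM in Scr and 31.8 to 39.2 CPM in MICT1 KO libraries. Adgre1, Ptprc, Itgam, Lyz2, C1qa and C1qb were not in the table, and Csf1r had a log2 fold change of 0.29 (adjusted p = 0.253). Cd14, which was 48.5% to 75.2% of the sum and is not particular to macrophages, was the 1 called marker of this list, at 129.6, 231 and 217 in Scr cells versus 465, 480 and 388 in MICT1 KO cells (log2 fold change 1.24, adjusted p = 2.44e-06). Without Cd14 the sum was 6.33 to 9.20 CPM in Scr and 7.91 to 9.86 CPM in MICT1 KO libraries. Of 10 skeletal muscle markers, Des and Acta1 were in the table, at a sum of 3.79 to 4.79 CPM in Scr and 3.37 to 5.74 CPM in MICT1 KO libraries, while Myod1, Myf5 and Myog were not.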

How the data were processed

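RNA-seq values of 6 libraries (3 Scr, 3 MICT1 KO) were used. The authors deposited a normalized signal per gene, not counts. Per the methods, stranded paired-end libraries were aligned to mm10 with Partek, and the submitters' processing notes also name STAR and DESeq2. The gene annotation and counting rule are not given in the sources used here. Among values under 20, 88.7% to 90.3% per library were whole multiples (tolerance 0.01) of a library step, which gives about 15444108 to 17921245 reads per library. Because some values are not whole, no count test was run. In R 4.3.3, limma 3.58.1 (trend) was fitted to log2(value + 1) of the 12507 genes that reached 10 in 3 or more libraries. It was also run on simulated data with far fewer changed genes than were called here, which is no test of it for these data. Libraries took their group from the sample titles. RPKM used GENCODE vM21 exon lengths (12986 genes), and promoter sequences are from RefSeq. The 9 genes and all lists were chosen with earlier results of these data known. Of each list, up to 2 falls and 2 rises were named: those with the largest log2 fold change among called genes with a mean of at least 10 and groups that do not overlap, and some single genes are not reported here. Called marker genes were named after their values were seen. The single values were tested with exact permutation. Replicates are described as biological, and p-values cover the spread between these cultures of 1 line. Alternatives were library-size and trimmed-mean scaling, limma-voom, other filters and pseudocounts, the replicate block and leaving out each library. RefSeq lengths were added after seeing the data.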

Additional observations from a re-analysis of the deposited data

How the results depend on the processing

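Direction and call held for Cebpa, Cebpb, Cebpd, Cebpg, Pparg, Ppara, Rxra and Rxrb under every alternative that gave them a value, and a maximum of at least 4 RPKM left Ppara out. Leaving out 1 library gave log2 fold changes of -3.11 to -2.88 for Cebpa, -2.37 to -2.21 for Pparg, 1.37 to 1.46 for Cebpd, -0.48 to -0.42 for Cebpb, -1.02 to -0.83 for Rxra, -0.42 to -0.35 for Rxrb and -0.91 to -0.43 for Ppara. For Ppard the range was -0.21 to -0.14 (adjusted p 0.0194 to 0.103), so 5 to 6 of the 9 genes were lower. Leaving out 1 library also gave 1 to 2 lower bZIP partners, and 0 to 1 lower and 0 to 1 higher among Cebpz and Ddit3. Of the inhibitors, 3 to 5 were then lower (5 without Scr 3) and 6 to 9 higher (6 without Scr 3 or without MICT1 KO 1). With a maximum of at least 4 RPKM, 1 coactivator was higher (2 otherwise) and 1 bZIP partner was lower (2 otherwise). The median of the RXR partners was 0.02 without a filter on low values. The replicate numbers did not pair the libraries (correlations of same-numbered deviations -0.02, -0.02 and 0.06). With the number as a block, 6 of the 9 genes were lower and 1 higher, 3512 genes were lower and 3543 higher (3544 and 3569 without), the Cebpa share differed by -15.8 points at an exact p of 0.25, the smallest 3 pairs allow, and libraries did not each correlate best with their own number. None of the 9 genes, their shares or the ratios changed direction, whereas the median of the RXR partners turned sign as given. Without dividing by exon length the shares of Cebpa and Pparg differed by -22.5 and -35.3 points, that of Ppard by 35.1, those of Cebpd and Cebpg by 9.28 and 4.10 (4.48 and 1.30 otherwise) and that of Ppara by 0.247 (0.517 otherwise). With RefSeq lengths the Cebpd share differed by 7.13 points. With 3 cultures of 1 cell line per group, exact tests cannot go below 0.1, and values near those of Ppara limit what can be detected.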

Other observations

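The genes whose log2 signal followed Cebpa most closely over the 6 libraries, among 9129 genes with a mean of at least 10 CPM, were Bri3bp (r = 0.9998), Ahcyl1 (0.9997) and Selenop (0.9996). For Pparg they were Me1, Hadh (0.9994) and Abhd5 (0.9993), and the r of Me1 was 0.99998. Over these 6 libraries, which form 2 groups, 368 of the 9129 genes exceeded r = 0.99 with Cebpa and 370 with Pparg. Close likeness did not mean a like size of difference, with log2 fold changes of -0.18 for Ahcyl1, -0.59 for Bri3bp and -1.69 for Selenop beside -3.01 for Cebpa.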
